A study of Homo sapiens with 79 samples.

Results

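The 7 genes of iron transport and storage described here were followed through the differentiation of human retinal organoids: transferrin (TF), its receptor (TFRC), the heavy and light ferritin chains (FTH1 and FTL), the ferroxidases ceruloplasmin (CP) and hephaestin (HEPH), and the iron exporter ferroportin (SLC40A1). All 7 were found by symbol among the 24414 gene rows of the table. They were picked by role, with levels of these genes in these cells already known, so the values are given as a description and no test was made on them. The cells came from H9, an established human embryonic stem cell line, which carried a CRX-GFP reporter and was the source of every organoid. All organoids received Y27632 at the start of differentiation and later foetal calf serum, T3, taurine and retinoic acid. They were dissociated at day 60, 90 or 200, and single cells were captured on Fluidigm C1 chips and sequenced as full-length cDNA, with 1 chip at day 60, 1 at day 90 and 2 at day 200 (chips a and b).

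Iron circulates bound to transferrin, which a cell takes up through the transferrin receptor. Inside the cell, surplus iron is stored in ferritin, a shell built of heavy chains, which oxidise the iron, and light chains. Iron leaves through ferroportin, and ceruloplasmin or hephaestin oxidise it so that transferrin can load it again. In the retina the pigment epithelium and the Müller glia, which span the tissue, are known to make transferrin and ceruloplasmin. Iron regulatory proteins bind a stem-loop in the mRNA called the iron responsive element. They block translation where the element lies in the 5′ UTR, and they stabilise the transferrin receptor mRNA where it lies in the 3′ UTR.

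In GRCh38 the genes lie at chr3:133746040-133796641 (TF, plus strand), chr3:196012511-196082153 (TFRC, minus), chr11:61959718-61967634 (FTH1, minus), chr19:48965309-48966879 (FTL, plus), chr3:149162410-149221829 (CP, minus), chrX:66162671-66268867 (HEPH, plus) and chr2:189560590-189583758 (SLC40A1, minus). The elements of the 7 genes are shown because they mark which of these mRNAs carry this control and at which end. The mRNA models of GENCODE 44 on GRCh38 were searched on the sense strand for the loop CAGTGN, with N as A, C or T. The loop had to be preceded by 5 bases that pair with the 5 bases after it (G with T allowed) and by an unpaired C. Elements with a mismatch in these 5 pairs were not searched for, so the list may be incomplete. The 6 loop bases are in capitals.
FTH1, 5′ UTR: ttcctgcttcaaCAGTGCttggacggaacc
FTL, 5′ UTR: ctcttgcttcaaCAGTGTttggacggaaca
SLC40A1, 5′ UTR: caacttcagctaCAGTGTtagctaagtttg
TFRC, 3′ UTR: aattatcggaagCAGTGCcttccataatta
TFRC, 3′ UTR: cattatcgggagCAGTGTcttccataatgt
TFRC, 3′ UTR: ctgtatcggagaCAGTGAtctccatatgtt
TFRC, 3′ UTR: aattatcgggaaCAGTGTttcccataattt
TF, 3′ UTR: tgaatgcattttCAGTGAaagattataaca
In order, these lie at chr11:61967573-61967602 (minus strand), chr19:48965335-48965364 (plus), chr2:189580660-189580689 (minus), chr3:196050978-196051007, chr3:196050574-196050603, chr3:196050509-196050538 and chr3:196050462-196050491 (all minus) and chr3:133792673-133792702 (plus). The same letters were found in 0.0572% of 19224 mRNAs with a 5′ UTR and in 0.504% of 19229 with a 3′ UTR. The match in TF lies in the 3′ UTR of a model of 20166 bases, far longer than its coding part of 2094 bases, and a match is a run of letters, not a shown binding site. No match was found in CP or HEPH.

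The counts covered 1976 cells, with 578 at day 60, 661 at day 90 and, at day 200, 356 (chip a) and 381 (chip b). The 79 samples are columns of the chips, with 19 to 20 columns per chip and 12 to 37 cells in each. Columns of a chip share 1 dissociation, so cells and columns do not stand for replicates of a day, and a second chip exists for day 200 alone. Column totals ran from 3414268 to 7999822 reads, and the median cell held 164352 reads at day 60, 160343 at day 90 and, at day 200, 251929 (chip a) and 212201 (chip b). All 4 chips shared 38 cell barcodes, and cells were told apart by column and barcode. Levels are in CPM, the reads of a gene per 1000000 reads, here of the summed cells of a chip, and in such a sum more cells of a class and more RNA per cell cannot be told apart. Their exact Poisson intervals, and the exact binomial intervals of shares, are at 95% and cover counting error only, and without molecular identifiers the reads are not independent molecules.

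Transferrin was the gene that rose most of all genes compared. TF stood at 4.34 CPM at day 60 (interval 3.95 to 4.75), 48.7 CPM at day 90 (47.45 to 50.01), 1201 CPM on chip a (1194 to 1208) and 798 CPM on chip b (792 to 804). Among the columns, the lowest, median and highest TF levels were 0, 1.21 and 21.8 CPM at day 60 and 5.45, 19.7 and 267 CPM at day 90. They were 9.75, 856 and 4040 CPM on chip a and 26.7, 729 and 2849 CPM on chip b. All 20 columns of chip b and 19 of 20 columns of chip a lay above every day 60 column, whereas 8 of 20 day 90 columns did. In CPM + 1, TF was 9.32-fold higher at day 90 than at day 60, and 225-fold higher on chip a and 150-fold higher on chip b. The mean of both chips gave a log2 ratio of 7.52, with an SD of 0.42 between the chips, and TF ranked 1 of 12365 genes with a mean of at least 5 CPM. Leaving out any 1 column kept TF between 1056 and 1260 CPM on chip a, between 690 and 850 CPM on chip b and between 3.30 and 4.59 CPM at day 60.

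**Figure D1:**
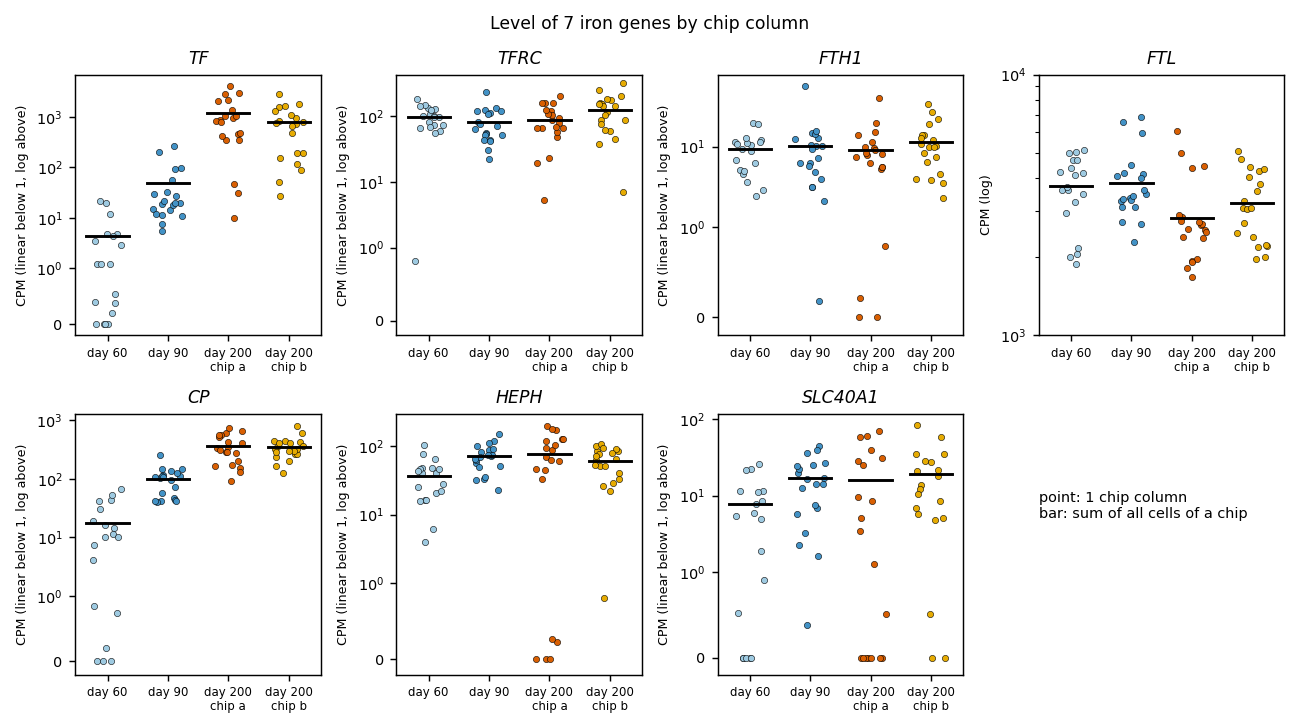
Level of each gene in CPM (vertical axis, log above 1 CPM) by chip, with 1 point for each of the 79 chip columns and a bar for the sum of all cells of the chip. The TF bars climb from 4.34 CPM at day 60 to 1201 and 798 CPM at day 200 and those of CP from 17.4 to 366 and 350 CPM, while the columns of TFRC, FTH1 and FTL overlap across all chips.

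These reads were held by few cells. At day 60, 5.54% of the cells had a TF read (interval 3.82% to 7.73%), at day 90 18.8%, and at day 200 69.1% (chip a) and 47.8% (chip b). With each cell thinned to 50000 reads, which left out 6 shallower day 90 cells, the shares were 3.63%, 14.4%, 44.7% and 33.3%. The tenth of cells with the most TF reads held 92.1% of them on chip a and 96.4% on chip b, and 1 cell of chip a reached 41404 CPM. A single read was widespread at day 200. In cone-like cells of chip a, a class with little TF in sum, 59.7% of the cells had a TF read, with a median of 4.08 CPM in a cell. At least 5 TF reads were found in 36.2% of all cells of chip a and in 27.03% of those of chip b, against 2.77% at day 60.

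Ceruloplasmin, the copper ferroxidase of plasma and glia, took the same direction. CP stood at 17.4 CPM at day 60 (16.6 to 18.3), 99.5 CPM at day 90 (97.6 to 101), 366 CPM on chip a (362 to 370) and 350 CPM on chip b (346 to 354). Its columns ran from 0 through a median of 10.2 to 67.8 CPM at day 60 and from 40.8 through 105 to 252 CPM at day 90. They ran from 92.4 through 318 to 731 CPM on chip a and from 127 through 321 to 803 CPM on chip b. Neither day 200 chip overlapped the day 60 columns, while 13 of 20 day 90 columns lay above them all. The log2 ratio of day 200 to day 60 was 4.28, with an SD of 0.04 between the chips and rank 29 of 12365, and that of day 90 was 2.45. Cells with a CP read made up 11.2% at day 60, 36.9% at day 90, 57.9% (chip a) and 62.99% (chip b). Unlike TF, CP was spread over many cells at day 200, where the tenth of cells with the most CP reads held 59.8% of them on chip a and 54.6% on chip b.

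Hephaestin, the membrane-bound relative of ceruloplasmin, and ferroportin changed by about 2-fold, and their columns overlapped between all chips. HEPH stood at 36.7 CPM at day 60, 72.2 at day 90 and, at day 200, 77.4 (chip a) and 61.4 (chip b), which is a log2 ratio of 0.96 for day 90 and of 0.89 for day 200, with an SD of 0.23 between the chips. Its column medians were 39.8, 70.6, 66.05 and 63.5 CPM, and 3 columns of chip a had no HEPH read. SLC40A1 stood at 7.71 CPM at day 60, 17.0 at day 90 and, at day 200, 16.1 (chip a) and 19.1 (chip b). Its log2 ratio was 1.05 for day 90 and 1.09 for day 200, with 0.97 on chip a, under 2-fold, and 1.21 on chip b. Only 5.88% to 12.1% of the cells of a chip had an SLC40A1 read, and its column medians were 5.45, 15.4, 4.34 and 13.0 CPM. No SLC40A1 read was found in 5 columns of day 60, 7 of chip a and 2 of chip b.

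The receptor and both ferritin chains kept their levels within the spread of the columns. TFRC stood at 99.0 CPM at day 60, 82.8 at day 90 and, at day 200, 89.0 (chip a) and 126 (chip b). The chips of day 200 lay on opposite sides of day 60, with log2 ratios of -0.15 and 0.34. Its column medians were 99.2, 66.8, 82.2 and 130 CPM, and a TFRC read was seen in 27.8% to 42.04% of the cells.

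FTL, the light chain, was the highest of the 7 genes on every chip, also per kilobase of mRNA. It stood at 3743 CPM at day 60 (3731 to 3755), 3829 CPM at day 90 and, at day 200, 2821 CPM (chip a) and 3223 CPM (chip b). Its columns ran from 1876 through a median of 3719 to 5115 CPM at day 60 and from 2278 through 3447 to 6892 CPM at day 90. They ran from 1673 through 2602 to 6082 CPM on chip a and from 1965 through 3086 to 5090 CPM on chip b, so all chips overlapped. The log2 ratio of day 200 to day 60 was -0.31, with an SD of 0.14 between the chips. Between 99.2% and 100% of the cells of a chip had an FTL read, the highest share among the 7 genes.

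FTH1, whose chain carries the ferroxidase site of ferritin, was listed at 9.33 CPM at day 60, 10.3 at day 90 and, at day 200, 9.09 (chip a) and 11.5 (chip b). Its row held 4073 reads in all against 1396057 for FTL. This row is uncertain. Of the 1203 bases of its mRNA, 880 (73.2%) lie under exons of BEST1 on the opposite strand, and of its windows of 75 bases, the length of a read, 33.7% occur again elsewhere in the genome, at 13 places. The counting used HTSeq's union mode, in which a read that overlaps exons of 2 genes counts for neither unless strand tells them apart, and no strand setting is given in the sources used here. Rows named as FTH1 pseudogenes numbered 15 and held 5169 reads, more than FTH1 itself, led by FTH1P8 with 2725. For FTL, 8 pseudogene rows held 19872 reads, 1.42% of its own, of which FTLP3 had 17933, and 11.7% of its windows recur elsewhere. The part of these in the FTH1 level was not tested. For CP, 27.7% of the mRNA lies under exons of HPS3 on the opposite strand, and for TF 5.58% of the windows recur elsewhere.

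Set against all genes, TF and CP had some of the largest ratios at day 200. At day 200, 7.70% of the 12365 genes were at least 2-fold higher on both chips than at day 60 and 3.23% at least 2-fold lower, with a median log2 ratio of 0.07. At day 90 the shares were 10.5% and 6.88% and the median 0.02. Of the 7 genes, all of which passed the minimum of 5 CPM, TF and CP were called higher at day 200, TF, CP and SLC40A1 at day 90, and 0 lower at either time. SLC40A1 ranked 1181 and HEPH 1607 at day 200, FTH1 5812, TFRC 5996 and FTL 9236.

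**Figure D2:**
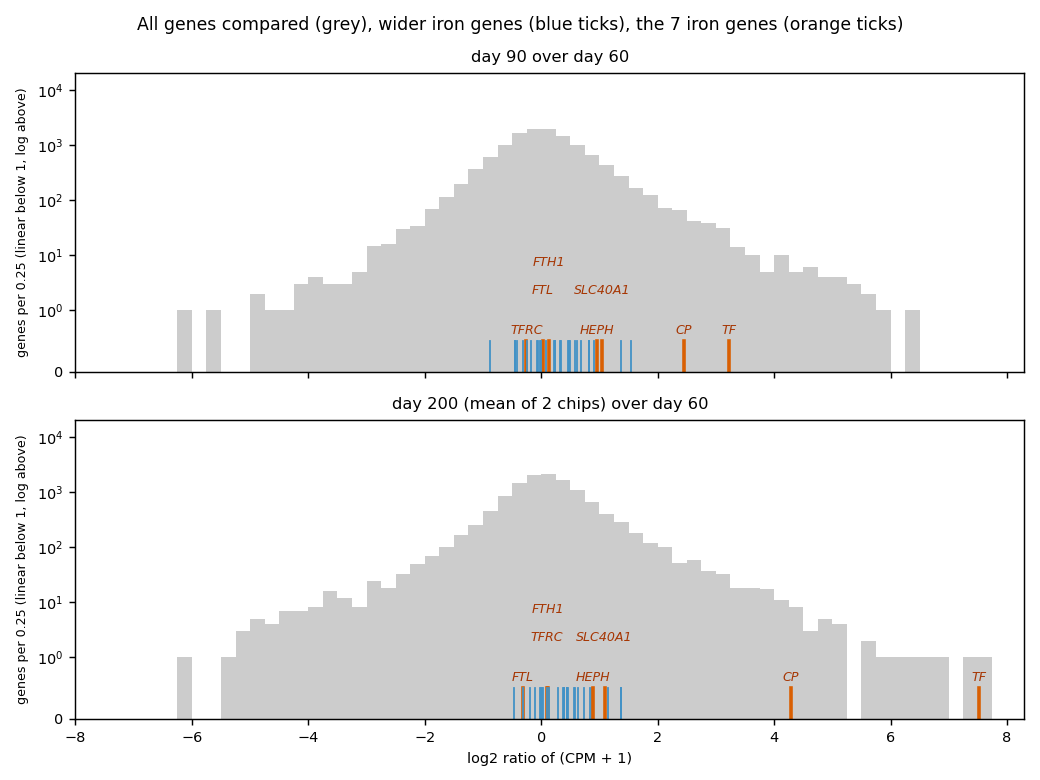
Number of genes (vertical axis, log above 1) in bins of the log2 ratio of CPM + 1 (horizontal axis) for day 90 and for day 200 over day 60, over 12365 genes. Orange ticks mark the 7 iron genes and blue ticks the other iron genes compared, and TF, at 7.52, stands at the right end of the day 200 panel, with CP at 4.28 and the remaining iron genes between -0.46 and 1.37.

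The wider set of iron genes held 54 genes by role, of which 48 were in the table and 35 passed the minimum. Of these 35, 4 (11.4%) were at least 2-fold higher on both day 200 chips and 0 lower, beside 7.70% of all genes, and the median log2 ratio was 0.43 beside 0.07. Without the 7 genes 2 of 28 (7.14%) were higher, near the share of all genes, with a median of 0.41. Beside TF and CP these were TFR2, the second transferrin receptor, at 3.01 CPM at day 60 and 7.09 and 8.82 CPM on chips a and b, and STEAP2, a metalloreductase, at 8.26 CPM and at 19.98 and 26.03 CPM. At day 90, 5 (14.3%) were higher, beside 10.5% of all genes, and 0 lower, with a median of 0.24, and 2 of 28 without the 7 genes. Beside TF, CP and SLC40A1 these were PCBP2, an iron chaperone and RNA-binding protein, which went from 116 to 301 CPM, and NFS1, the cysteine desulfurase of iron-sulfur cluster assembly, which went from 5.59 to 18.3 CPM. Of the 3 iron sensing genes and the 12 compared genes of haem metabolism, 0 passed 2-fold at either time. The 6 genes of this set with no row in the table were not analysed here.

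Where in the organoid the 7 genes were expressed was read from a clustering that used none of the iron genes, with classes named from the study's marker lists after TF was taken out of the Müller glia list. It gave 12 clusters of 50 to 459 cells. Of these, 9 were named: Müller glia-like (459 cells, 8 of the 9 markers), cone-like (248), RGC-like (161), mitotic-like (102), RPE-like (97), ECM-like (85), cluster 7-like (70), rod-like (57, led by CCKBR) and cluster 8-like (50, led by GFAP). The remaining 3 stayed unnamed, 1 of 286 cells led by GDF15, TRIB3 and SCD, 1 of 176 cells led by IGFBP6, ABCB1 and TTN and 1 of 185 cells led by VSX1. The last held 6 markers of the rod list, but of the genes in its top 10 VSX1, LHX4 and NEUROD4 are also known from bipolar cells and precursors, and NRL and GNAT1 led the rod-like cluster instead. Its name was withdrawn after its leading genes were seen. TF itself was the first of the leading genes of the Müller glia-like cluster by fold. Of genes not used for naming, RLBP1, a retinoid-binding protein of Müller glia and pigment epithelium, was above the other cells there only at day 200, with 491 against 93.7 CPM on chip a and 255.6 against 43.9 CPM on chip b. At day 60 it was at 0.31 against 4.23 CPM and at day 90 at 108 against 165 CPM. GLUL, the glutamine synthetase of Müller glia, stood at 373 CPM in these cells and 360 CPM in the others. The label thus rests on the marker list used. At day 60 and day 90 RLBP1 did not set the cluster apart. GLUL differed little between these cells and the others, with no split by day given. Further Müller glia genes not used for naming are not given by cluster here.

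Summed over the chips, transferrin and ceruloplasmin were highest in the Müller glia-like cells. There TF stood at 1589 CPM (1581 to 1597) against 171 CPM in all other cells, 9.26-fold in CPM + 1, and CP at 411 CPM (407 to 416) against 138 CPM, 2.97-fold. In this cluster 3.73% of all genes compared were at least 2-fold higher than in the other cells, and of the 7 genes TF and CP were. The CP call ended at a clustering resolution of 0.8, with a log2 ratio of 0.72 in place of 1.57, and without integration the ratio of TF was 5.03 in place of 3.21. Both were higher there than in the other cells on 4 of 4 chips. The fold of TF ran from 1.76 at day 60 to 13.5 on chip a, whereas that of CP stayed between 2.11 and 3.15. For TF the first place among clusters held at day 200 only. At day 90 the VSX1-led cells (143 CPM) and the IGFBP6-led cells (115 CPM) lay above the 102 CPM of the Müller glia-like cells, and at day 60 the VSX1-led cells had 7.64 against 7.09 CPM. Without their highest cell on each chip, the VSX1-led cells were at 2.87 CPM at day 90 and 0.60 CPM at day 60. On chip a the Müller glia-like cells were 30.1% of all cells and held 84.8% of the TF reads and 56.6% of the CP reads. On chip b they were 20.7% of the cells and held 53.9% and 34.5%.

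**Figure D3:**
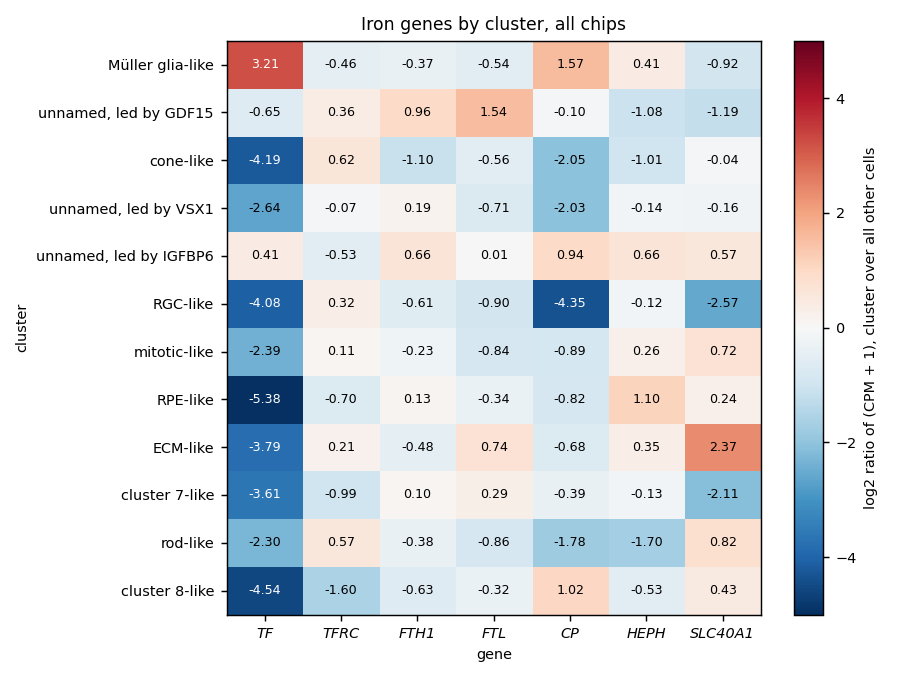
Log2 ratio of CPM + 1 of each gene (columns) in each of the 12 clusters (rows) over all other cells, summed over the 4 chips, in colour and as a number. TF is at 3.21 and CP at 1.57 in the Müller glia-like cells, FTL at 1.54 in the cluster led by GDF15, SLC40A1 at 2.37 in the ECM-like and HEPH at 1.10 in the RPE-like cells.

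The next cluster for TF was the unnamed one led by IGFBP6, at 612 CPM, which differed between chips, from 121 CPM in 15 cells of chip a to 1118 CPM in 79 cells of chip b. The unnamed cluster led by GDF15 followed at 318 CPM, with 828 CPM (chip a) and 401 CPM (chip b). The other 9 clusters stood between 11.1 CPM in the RPE-like and 98.1 CPM in the rod-like cells, and their order rests on few cells. The RPE-like cells were last in the sum, in which 78 of their 97 cells came from day 90, when TF was low. On the day 90 chip they had 10.3 CPM, above the 6.82 CPM of the GDF15-led and the 9.72 CPM of the cluster 7-like cells.

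For CP the second place was taken by the cluster 8-like cells, at 390 CPM, with 104 CPM in 22 cells of day 60 and 591 CPM in 20 cells of chip b. At day 60 this was the cluster with the most CP among those with at least 10 cells, and the Müller glia-like cells had 37.7 CPM. The cluster led by IGFBP6 stood at 345 CPM, the one led by GDF15 at 185 CPM and the RPE-like cells at 113 CPM. The RGC-like cells were lowest in the sum, at 9.43 CPM (8.37 to 10.6), with 98 of their 161 cells from day 60, when CP was low. At day 90 the VSX1-led cells, at 10.5 CPM, lay below their 31.4 CPM. The levels of the Müller glia-like, cluster 8-like and IGFBP6-led cells overlapped over chips.

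The light ferritin chain was highest in the unnamed cluster led by GDF15, a stress-induced cytokine. FTL stood there at 7898 CPM against 2714 CPM in the other cells, and the fold lay between 2.74 and 3.13 on all 4 chips, a narrow range beside the 1.76 to 13.5 of TF in the Müller glia-like cells. In this cluster 2.81% of all genes were at least 2-fold higher, and FTL was the 1 called of the 7 genes. In the sum FTH1 was highest there too, at 18.0 CPM against the 4.54 CPM of the cone-like cells, which were lowest, but with a fold of 1.95 it was not called. At day 90 the VSX1-led cells, at 21.9 CPM, lay above its 15.8 CPM, and with 30 dimensions or a resolution of 0.8 a cluster made mostly of IGFBP6-led cells was highest (17.2 and 19.0 CPM against 16.4 and 17.9 CPM). TF, HEPH and SLC40A1 were lower there than in the other cells, with log2 ratios of -0.65, -1.08 and -1.19. The ECM-like cells came second for FTL, at 5566 CPM, and were above the other cells on 3 of 3 chips with at least 10 of these cells. The remaining clusters stood between 1902 CPM in the RGC-like and 4156 CPM in the cluster 7-like cells.

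Ferroportin was highest in the ECM-like cells, which are marked by collagen genes and DCN. SLC40A1 stood there at 68.7 CPM (64.8 to 72.7) against 12.5 CPM, 5.18-fold, and the fold lay between 4.27 and 5.27 on 3 of 3 chips. In this cluster 8.58% of all genes were at least 2-fold higher, and SLC40A1 was the 1 called of the 7. An SLC40A1 read was found in 34.1% of the ECM-like cells (24.2% to 45.2%), in 31.96% of the RPE-like cells (22.9% to 42.2%) and in 1.86% of the RGC-like cells. The median reads per cell of these clusters were 199165, 187992 and 160337. The level in the RPE-like cells was 17.5 CPM.

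Hephaestin was highest in the RPE-like cells, at 126 CPM (122 to 131) against 58.4 CPM in the other cells, 2.15-fold. In this cluster 7.94% of all genes were at least 2-fold higher, and HEPH was the 1 called of the 7. On day 90, the only chip with at least 10 RPE-like cells, the levels were 99.1 and 67.6 CPM, 1.46-fold, and in the 9 and 6 RPE-like cells of chips a and b HEPH stood at 329 and 182 CPM. The clusters below it, from 92.6 CPM in the IGFBP6-led to 73.7 CPM in the mitotic-like cells, overlapped in their values over chips. In the Müller glia-like cells HEPH stood at 76.9 CPM and was above the other cells on 4 of 4 chips, by 1.13- to 1.65-fold.

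The transferrin receptor had no cluster that was highest on every chip. In the sum TFRC ran from 32.2 CPM in the cluster 8-like cells to 144 CPM in the rod-like cells, and its level in the latter ranged from 13.0 to 282 CPM over 3 chips. The GDF15-led cells were highest at day 90 (192 CPM) and the RGC-like cells on chip a (322 CPM), and with 10 dimensions the cluster that best matched the rod-like cells was not the highest. The cone-like cells, at 140 CPM, were above the other cells on 4 of 4 chips, by 1.04- to 3.52-fold. The Müller glia-like cells, at 75.6 CPM, had the most TF but were below the other cells in TFRC on 4 of 4 chips, with a log2 ratio of -0.46 over all chips.

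**Figure D4:**
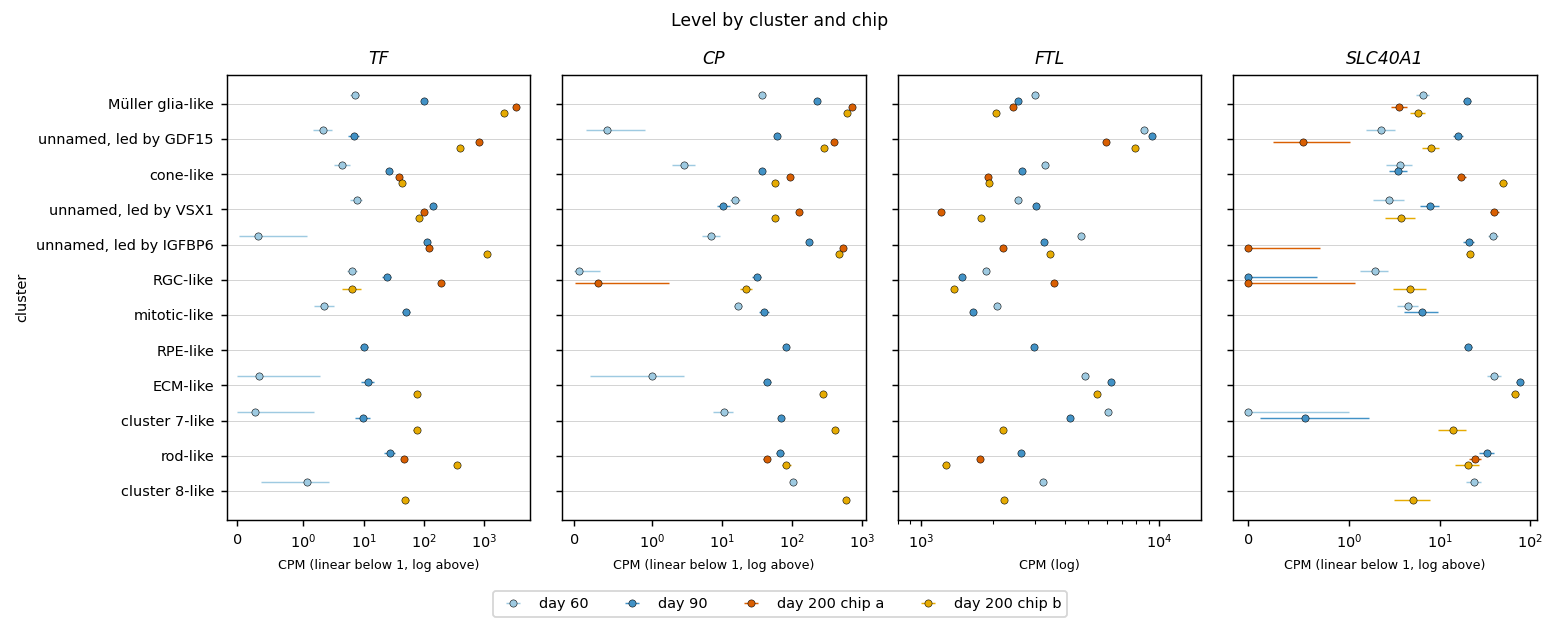
Level in CPM (horizontal axes, log above 1 CPM) of TF, CP, FTL and SLC40A1 in each cluster (rows) on each chip, for clusters with at least 10 cells on the chip, with exact Poisson 95% intervals of the summed reads. In the Müller glia-like row TF moves from 7.09 CPM at day 60 to 3480 and 2155 CPM at day 200, and FTL of the GDF15-led row stays between 5951 and 9314 CPM.

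TF and CP were also higher at day 200 within clusters. Whether the mix of cells inside a cluster changed between days was not tested. In the Müller glia-like cells RLBP1, as given above, was far lower at day 60 than on either day 200 chip. The paper reports expression of retinal progenitor genes in its own Müller glia cluster at every time point. Levels of those progenitor genes are not given by cluster here. Whether the rise of TF and CP under this label came with fewer progenitor cells was not tested. In 6 clusters, day 60 and each day 200 chip had 10 cells or more. There TF was at least 2-fold higher on both day 200 chips in 5 of these 6 and so was CP, and in both cases the exception was the RGC-like cluster. The share of all genes that pass this call within a cluster was not computed. The within-cluster counts of all 7 genes, here and below, thus have no such share beside them. In the Müller glia-like cells TF went from 7.09 CPM at day 60 through 102 CPM at day 90 to 3480 and 2155 CPM on chips a and b, log2 ratios of 8.75 and 8.06, and CP from 37.7 through 228 to 708 and 605 CPM. In all cells outside that cluster TF went from 3.59 CPM to 258 and 460 CPM and CP from 11.9 to 224 and 286 CPM. In cone-like cells the rise of TF was from 4.41 to 38.9 and 43.1 CPM, and whether reads of other cells add to it was not tested. In RGC-like cells TF was at 6.38 CPM at day 60 and at 195 and 6.31 CPM at day 200, where 11 and 21 cells were measured. Without the highest cell of each chip TF was called in 6 of 6 clusters, the RGC-like cells included (0.61, then 56.1 and 4.90 CPM), and CP in 5 of 6.

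The other 5 genes changed in few clusters. SLC40A1 was higher on both day 200 chips in 1 of 6 clusters, the cone-like cells, from 3.61 to 17.3 and 50.2 CPM, and HEPH in 1 of 6, the VSX1-led cells, from 9.23 to 143 and 69.97 CPM. Both rest on few cells, with an SLC40A1 read in 2 cone-like cells of day 60, 6 of chip a and 3 of chip b and a HEPH read in 8, 5 and 7 VSX1-led cells. Without the highest cell of each chip, a choice made after seeing the data, SLC40A1 went from 0.61 to 8.06 and 16.8 CPM and HEPH from 4.24 to 67.7 and 54.4 CPM. TFRC was lower in 1 of 6, the same VSX1-led cells, from 167 to 47.9 and 78.5 CPM. FTL and FTH1 passed 2-fold on both chips in 0 of 6, although without the highest cells FTH1 was lower in 2 of 6 (VSX1-led and RGC-like) and HEPH in 1 of 6 (RGC-like). In the Müller glia-like cells FTL went from 3012 CPM at day 60 to 2439 and 2072 CPM, and TFRC stayed at 83.4, 82.5 and 79.5 CPM.

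A cell with TF did not always have CP. On chip a, 151 of 356 cells had reads of both, 95 of TF only and 55 of CP only, so that CP was read in 61.4% of the cells with TF, while 55 cells had neither. Chip b had 128, 54 and 112 such cells of 381, and CP was read in 70.3% of its cells with TF and in 56.3% of those without. Over the cells of a chip the Spearman correlation of TF and CP was 0.20 on chip a, 0.18 on chip b, 0.12 at day 90 and 0.00 at day 60, weak values between genes of 1 library that share its depth. FTH1 and FTL had 0.20 to 0.29 on the 4 chips, and the FTH1 row is uncertain, as stated above. Over the 32 sums of a cluster on a chip with at least 20 cells, the Pearson correlation of log2(CPM + 1) was 0.73 for TF and CP, 0.64 for FTH1 and FTL and at most 0.36 for every other pair, and these sums share chips.

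Over the same 32 sums, among 10321 genes with a mean of at least 10 CPM, the pattern of TF was most like those of WIF1 (r = 0.88), KLHL8 (0.80) and PYGL (0.79). CP was most like NFIX (0.83), WIF1 (0.79) and RGL1 (0.78). FTL was most like its pseudogene row FTLP3 (0.95), then GDF15 (0.83) and EIF1 (0.75), and FTH1 most like NAB2 (0.72), LAPTM4A (0.65) and FTL (0.64). HEPH was most like TBC1D9 (0.78), FMR1 (0.77) and BAMBI (0.76), TFRC most like CAND1 (0.71), TRMT1L (0.69) and MFSD4B (0.69), and SLC40A1 most like LIMA1 (0.65), CCDC80 (0.63) and MXRA5 (0.60).

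Per kilobase of coding sequence, the order of levels at day 60 was FTL with 7129 CPM, TFRC with 43.4, FTH1 with 17.0, HEPH with 10.6, CP with 5.46, SLC40A1 with 4.50 and TF with 2.07. On chip a it was FTL with 5373 CPM per kilobase, TF with 574, CP with 114, TFRC with 39.05, HEPH with 22.3, FTH1 with 16.5 and SLC40A1 with 9.38. TF thus moved from last to second place. Per kilobase of all annotated exons, which for TF sum to 26038 bases, CP came before TF on chip a, with 51.7 against 46.1 CPM, so the order of these 2 depends on the length used.

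Markers of other tissues that make transferrin stayed low or did not follow it. The liver list had 3 of 6 genes in the table, with a summed level of 2.57 CPM at day 60 and 0 on both day 200 chips, and ALB was at 0 there. Of the oligodendrocyte markers, MOG was at 0 on chips a and b. The choroid plexus list (6 of 6) summed to 127, 909, 502 and 377 CPM, with most from OTX2 and TTR, which the pigment epithelium and photoreceptors express too. The RPE list (6 of 6, genes not used for naming) stood at 42.1, 483, 114 and 84.4 CPM, highest at day 90, and RPE65 was at 0 on chips a and b. The Müller glia list (6 of 6, not used for naming) moved with TF, at 330, 520, 974.7 and 862 CPM, which is less than 3-fold against day 60 on either chip. The microglia list (2 of 8) stood at 6.01, 8.13, 0 and 3.05 CPM, the red cell list (1 of 6) at most at 0.69 CPM, the endothelial list (5 of 6) at 36.2, 56.2, 126 and 146 CPM, mainly KDR from day 90 on, and the pluripotent list (2 of 4) at most at 1.14 CPM.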

How the data were processed

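Single cells of organoids at 60, 90 and 200 days were measured by SMART-Seq v4 on Fluidigm C1 chips. The deposited values are counts of reads per gene and cell, with no molecular identifiers and no normalization. The authors trimmed the reads (Trimmomatic 0.33, per the submitters' processing notes), aligned them to GRCh38 with GENCODE 25 (STAR 2.4.0), counted them with HTSeq 0.6 in union mode and then applied Scater's filters to cells and genes, and no strand setting is given in the sources used here. Per the paper, these filters differed by day, with a lower minimum of reads per cell at day 60. Day 90 was run first, with more spike-in RNA and a looser limit on spike-in reads. Each cell was mapped to its chip column by the deposited barcode table, whose names equal the sample titles, and no cell was left out. The spike-in row was kept out of library sizes.

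The 7 genes, the wider iron lists, the check lists and all settings were chosen with earlier results of these data known. Reads were summed per chip, column or cluster and given as CPM. Ratios are of CPM + 1, and a gene was called past 2-fold, for day 200 on both chips, among genes with a mean of at least 5 CPM. No test was made, since day 60 and day 90 have 1 chip each. Cells were clustered with Seurat 5.3.0 in R 4.3.3 (1000 variable genes per time point, 2426 in all, CCA with 20 dimensions, resolution 0.6), with 6 variable iron genes left out. A cluster was named by at least 3 markers of a list (at least 2-fold after adding 5 CPM, reads in 20% of the cells) unless its top 10 held more genes of a different list. Scrublet (scanpy 1.11.5) marked as doublets 1, 0, 22 and 2 cells on the 4 chips, which were kept. The caller marked too few cells at day 60, at day 90 and on chip b to be relied on there. Named are the 7 genes, every wider iron gene past 2-fold between days, the 3 genes most like each member and pseudogene rows as counts. Intervals were computed with scipy 1.17.1. The day 200 to day 60 ratios and their calls were tested on simulated chip sums, and the thinning on simulated draws. The clustering and the ratios between clusters were not tested in this way. Alternatives were edgeR 4.0.16 TMM and DESeq2 1.42.0 size factors, other library sizes, means over cells, stricter cell filters, doublets left out, each chip left out, other clusterings and other minimums. Gene models and sequences are from GENCODE 44 on GRCh38, the same assembly as the files, and gene models may differ from GENCODE 25. The summed level of the oligodendrocyte list is not reported here.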

Additional observations from a re-analysis of the deposited data

How the results depend on the processing

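Of 218 values recomputed under another setting, 197 stayed within a set spread or within 1.5 times the count, and 21 moved by more. The spread was the SD between the day 200 chips for day 200 ratios and the larger column SD for day 90 ratios. For shares it was the counting interval of the difference, and for clusters the SD over chips, or over day 90 columns for the RPE-like cells. Leaving out 1 day 200 chip always moves the day 200 ratio by less than that SD, so those values could not count as moved. The small ratios of TFRC, FTH1 and FTL between days and the FTH1 share changed sign within their spread under 1 setting each for TFRC and FTL and 3 for FTH1. With cells of at least 150000 reads and at most 10% mitochondrial reads, the log2 ratio of day 200 to day 60 was 8.05 for TF, 4.47 for CP and 1.30 for SLC40A1, and as a mean over cells it was 4.13 for CP. The share of cells with a read at day 200 less that at day 60 was 52.5 percentage points for TF, but 35.2 after thinning to 50000 reads and 28.7 for at least 5 reads. For CP it was 49.3, with 40.2 and 37.7, and for FTL -0.23, with -2.41 and -3.18. Without integration the log2 ratio of the Müller glia-like to the other cells was 5.03 for TF and 2.55 for CP. At resolution 0.8 it was 0.72 for CP, under 2-fold, where a sub-cluster of 82 cells, all from the Müller glia-like cluster, held the most TF and CP (2704 and 820 CPM). Leaving out 1 chip at a time, it ran from 1.23 without chip a to 1.92 without chip b for CP. The ratio of FTL in the cluster led by GDF15 was 1.25 with 10 dimensions, 1.34 at resolution 0.4 and 1.36 without integration. With a minimum of 1 CPM, 929 genes were lower at day 200, and 2049 were higher and 1476 lower at day 90. No paired analysis was possible because no result comes from a test and column numbers of different chips name no shared source.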

Other observations

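Among the 35 wider iron genes compared, others than the 7 differed between clusters by at least 2-fold. They were named after their values were seen. In the cluster led by GDF15, ISCU, the scaffold of iron-sulfur cluster assembly, was 2.00-fold and PPOX, an enzyme of haem synthesis, 2.13-fold higher than in the other cells. In the ECM-like cells STEAP2 was 3.77-fold, CPOX 2.41-fold and UROD 2.10-fold higher, the latter both enzymes of haem synthesis. In the RPE-like cells SLC25A28, a mitochondrial iron importer, was 2.16-fold higher.

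Day 60 and day 90 have 1 chip each, so day and chip cannot be told apart there, and all cells derive from 1 line. The columns of a chip share its dissociation, and their spread is no measure of the spread between organoids. Reads carry no molecular identifiers. The clusters were rebuilt here, and cells of 1 cluster differ in number between chips. FTH1 overlaps BEST1 and has pseudogene copies, whose part in its level was not tested, and whether low TF reads in cone-like cells come from other cells was not tested.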
